A study of Mus musculus with 22 samples.

Results

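Glutathione peroxidases reduce hydrogen peroxide and lipid hydroperoxides to water and alcohols at the expense of glutathione, and so limit oxidative damage to membranes, proteins and DNA. Gpx1 is the abundant cytosolic and mitochondrial enzyme, Gpx2 is the form of gastrointestinal epithelium, Gpx3 is secreted into plasma mainly by the kidney proximal tubule, and Gpx4 reduces lipid hydroperoxides within membranes and restrains ferroptosis, a cell death driven by lipid peroxidation. Gpx5 is secreted by the epididymis and in mice has cysteine in place of selenocysteine, and Gpx7 and Gpx8 are enzymes of the endoplasmic reticulum that oxidize partners during protein folding. These 7 genes were chosen by family name, with earlier results of these data known, and were followed among the 31053 genes of the matrices. Each symbol occurred once and matched 1 gene of the GENCODE vM21 annotation.

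The measurements were single-cell RNA profiles of mice from 10x Genomics 3′ libraries, where each barcode tags the transcripts of 1 droplet and each captured transcript is counted once by its molecular identifier (UMI). Libraries held blood cells sorted for the ZsGreen lineage tag from mice that never bore a tumour (ntCZC, 10 libraries, 2501 barcodes), pooled kidney, liver, lung, stomach and epididymis (males) or uterus (females) (tissue, 9 libraries, 143502 barcodes), or unsorted peripheral blood mononuclear cells (PBMC, 1 library, 752 barcodes). All mice were Prom1-CreERT2;Rosa26ZSG, a tamoxifen-inducible recombinase driven by Prom1 together with a ZsGreen reporter, so recombination reached only the lineage of Prom1-expressing cells. The genotype labels concerned Nalcn, a sodium leak channel gene, with 2 wt, 4 het and 4 null ntCZC libraries and 5 wt, 2 het and 2 null tissue libraries. Ages were 551 to 649 days for ntCZC and 551 to 654 days for tissue, and the PBMC library came from a wt male of 120 days. By label, 6 ntCZC and 6 tissue libraries were male, and 4 and 3 were female. Another 2 tissue libraries carried conflicting genotype labels and entered no comparison. The study calls its replicates biological in general, and the labels tie no library to a mouse. Tissue wt 1 and wt 2, tissue het 1 and het 2, and ntCZC het 2 and het 4 share an age and sex, so p-values measure the spread between libraries, which may be technical. Across kinds, 4 ntCZC libraries (wt 1, wt 3, het 2 and null 2) share genotype, replicate number, age and sex with a tissue library and may come from the same mouse, whereas the tests treat all libraries as independent. All values are UMIs per 1000000 UMIs of the library or class (CPM), and because 3′ counts do not measure transcripts per length of gene in a way comparable between genes, levels were compared between samples or classes within 1 gene.

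Libraries held 161541 to 2600526 UMIs in ntCZC and 8571019 to 139793927 in tissue, and 3900 of the 175975 distinct barcode sequences occurred in more than 1 library. Library ntCZC wt 3 stood apart, with 73.5% of its UMIs from haemoglobin genes (0.333% to 32.4% in the other ntCZC libraries) and 11 of its 77 barcodes passing the filter, which asked for 200 genes or more and no more than 25% of UMIs from mitochondrial genes. Tissue null 3 matched its female label in part. It held 15728 CPM of the 10 epididymal marker genes, which is above the male libraries (544 to 12646 CPM), whereas the other 2 grouped female libraries held 5.03 and 6.30 CPM. Its 1347 CPM of Xist lay within the range of those female libraries (1180 to 1788 CPM, against 0.0572 to 0.316 CPM in males), whereas its 31.2 CPM of Y-linked genes lay between those female libraries (0.0743 and 0.117 CPM) and the males (134 to 192 CPM). Uterus markers did not separate the sexes, at 1.34 to 61.3 CPM in male and 16.2 and 18.1 CPM in those 2 female libraries.

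Promoter stretches of Gpx2, Gpx3 and Gpx5 are shown because these members were led by classes of 3 different organs, the stomach, the kidney and the epididymis. Letters come from the RefSeq promoter table (GRCm38.p6), 5′ to 3′ on the strand of the gene, and only bases outside annotated exons are printed. The Gpx3 stretch ends just before the first exon of 1 GENCODE transcript and lies in an intron of another that starts further upstream. Capitals mark a match, on either strand, to CCAAT (the CCAAT box) or to TGTTCT (the core of the steroid receptor element). The search also covered TATAAA (the TATA box). It covered GGGCGG (the GC box) as well. It further covered TGACNNNGC (the core of the antioxidant response element), and none of these last 3 motifs was found in the printed stretches. The Gpx2 stretch is chr12:76795555-76795804 (minus strand), the Gpx3 stretch chr11:54902604-54902771 (plus strand) and the Gpx5 stretch chr13:21292732-21292936 (minus strand).
Gpx2: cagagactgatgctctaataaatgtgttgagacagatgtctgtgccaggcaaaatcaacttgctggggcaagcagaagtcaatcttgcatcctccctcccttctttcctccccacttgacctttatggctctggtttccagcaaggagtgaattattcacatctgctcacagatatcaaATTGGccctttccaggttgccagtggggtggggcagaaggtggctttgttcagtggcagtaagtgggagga
Gpx3: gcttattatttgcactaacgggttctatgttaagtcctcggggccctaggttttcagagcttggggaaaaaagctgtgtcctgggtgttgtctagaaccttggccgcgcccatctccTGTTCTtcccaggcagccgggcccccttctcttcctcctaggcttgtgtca
Gpx5: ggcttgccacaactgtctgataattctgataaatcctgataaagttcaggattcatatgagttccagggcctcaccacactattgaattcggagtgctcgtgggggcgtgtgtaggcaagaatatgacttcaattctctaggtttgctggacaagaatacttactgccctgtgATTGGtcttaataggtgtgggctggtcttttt
The Gpx2 and Gpx5 stretches each held 1 CCAAT match, read on the opposite strand, which 33.8% of 32851 promoter windows of 250 bases and 29.2% of those of 205 bases also held. The Gpx3 stretch held 1 TGTTCT match, found in 11.3% of windows of 168 bases. Guanine and cytosine made up 49.2%, 54.2% and 44.4% of the Gpx2, Gpx3 and Gpx5 stretches. On GRCm38 the genes themselves lie at chr12:76792333-76795554 (Gpx2), chr11:54902453-54910377 (Gpx3) and chr13:21286429-21292731 (Gpx5), and the other members at chr9:108338903-108340343 (Gpx1), chr10:80047166-80056439 (Gpx4), chr4:108400390-108406961 (Gpx7) and chr13:113042753-113046410 (Gpx8). Each member thus lies on a chromosome of its own except Gpx5 and Gpx8.

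Sorted circulating cells and tissue differed in most of the family. Gpx1 was higher in ntCZC than in tissue with all barcodes summed, Gpx3 and Gpx4 were lower, Gpx2, Gpx5 and Gpx8 were at or near 0 in ntCZC, and Gpx7 was low in both. In the edgeR quasi-likelihood test 64.5% of the 10681 genes tested were called (6891, with 3042 higher and 3849 lower in ntCZC), so a call in this comparison was common. Of the 4 members tested, all 4 of them called, Gpx3 and Gpx8 passed the low-count filter through their tissue libraries, so their calls were set by the filter in part and the count was not weighed against this background. ntCZC libraries hold sorted blood cells and tissue libraries hold whole organs, so in sums over a library fewer cells of a type and less RNA per cell cannot be told apart. Of 1563 ntCZC barcodes assigned to a class by markers (below), 737 were nonclassical monocyte-like, second in mean Gpx1 among the classes compared in tissue. Tissue held 548 such barcodes, libraries without a group included, beside 35343 assigned barcodes in its 9 grouped libraries. The part of this make-up in the Gpx1 difference was not tested.

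**Figure D1:**
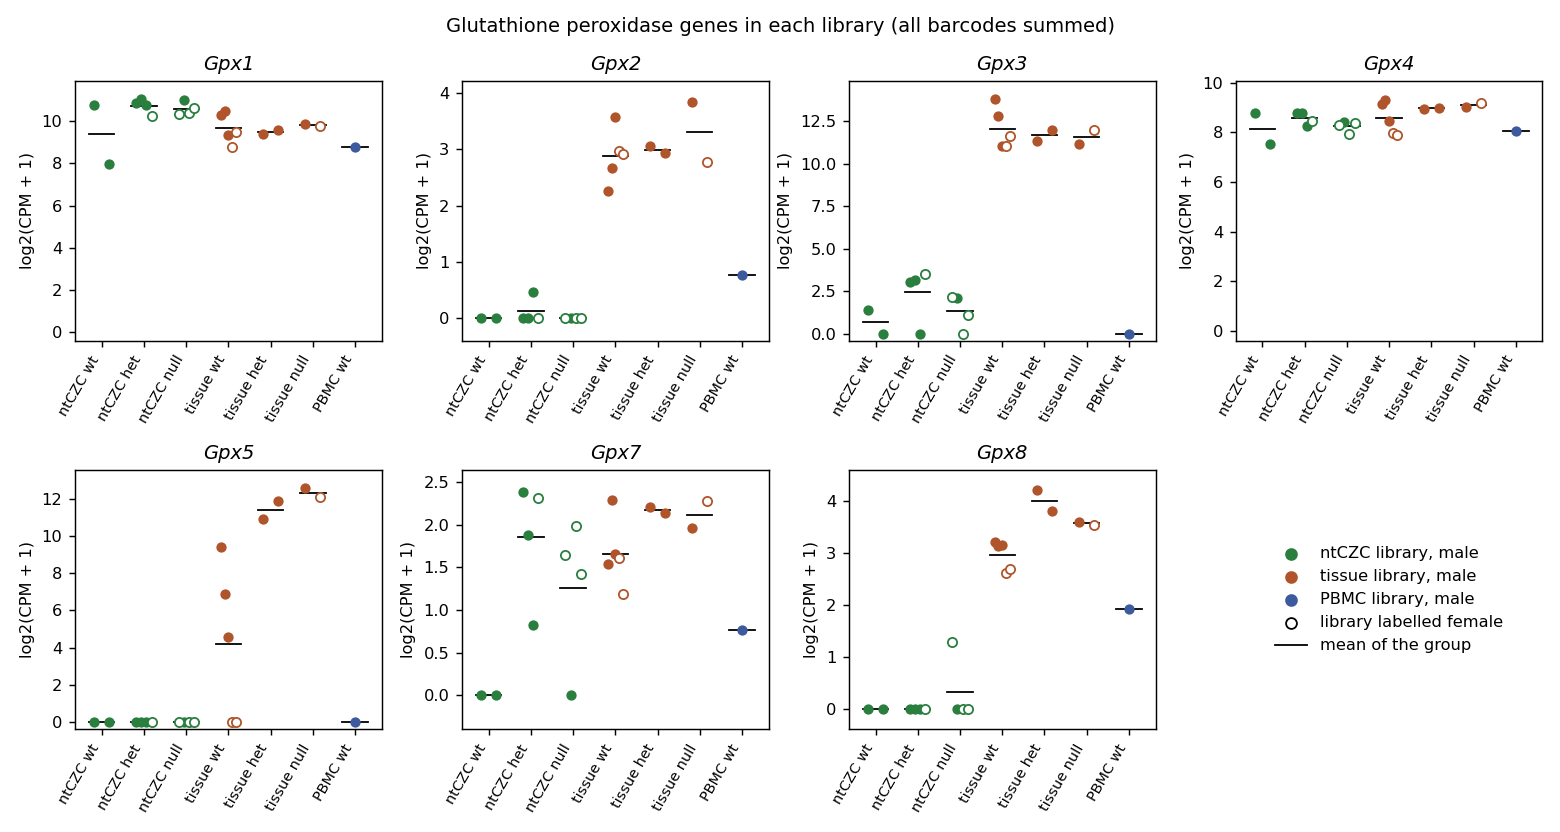
CPM of each member, as log2(CPM + 1), in every library with a group. Columns are kind and genotype label, filled points are male and open points female by label, and lines are means of the plotted values. Gpx3 and Gpx5 separate the tissue libraries from the ntCZC libraries, apart from the female tissue libraries wt 4 and wt 5, which hold no Gpx5 UMI.

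Gpx1, the enzyme that reduces soluble hydrogen peroxide, ran from 248 CPM (wt 3) through a median of 1646 to 2084 CPM (het 2) in ntCZC and from 438 CPM (wt 4) through a median of 773 to 1405 CPM (wt 2) in tissue. The groups overlapped through ntCZC wt 3, ntCZC het 3 (1202 CPM), ntCZC null 1 (1311 CPM) and ntCZC null 3 (1321 CPM), which lay at or below the highest tissue libraries. Mean levels were 1513 ± 540 CPM (SD, n = 10) and 852 ± 303 CPM (SD, n = 9), and the log2 difference was 0.75 ± 0.22 (SE), with an edgeR adjusted p of 0.00505. With haemoglobin UMIs left out of the totals, ntCZC wt 3 stood at 936 CPM and the ntCZC mean at 1785 ± 397 CPM (SD, n = 10). Of the 40 Gpx1 UMIs of ntCZC wt 3, however, 30 lay in 16 barcodes with haemoglobin genes at 50% or more of their UMIs, and the other barcodes of this library held 254 CPM. With such barcodes left out of every library, the ntCZC mean was 1679 ± 571 CPM (SD, n = 10), the tissue mean was 853 ± 306 CPM (SD, n = 9) and the call was lost (log2 difference 0.64 ± 0.29 SE, edgeR adjusted p = 0.0589), whereas it was kept without any 1 library (0.58 to 0.87, edgeR adjusted p at most 0.0199). Blocking the 4 ntCZC and tissue pairs that share genotype, replicate number, age and sex also lost the call (values in the section on processing). The PBMC library held 442 CPM.

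Gpx4, the membrane lipid hydroperoxidase, was the member closest to equal. It ran from 186 CPM (wt 3) through a median of 338 to 445 CPM (het 1) in ntCZC and from 237 CPM (wt 5) through a median of 513 to 639 CPM (wt 2) in tissue, and the groups overlapped widely. The log2 difference was -0.41 ± 0.17 (SE), with an edgeR adjusted p of 0.0396. With haemoglobin UMIs left out of the totals, ntCZC wt 3 stood at 702 CPM, the highest of the 19 libraries, the means were 434 ± 105 CPM (SD, n = 10) and 468 ± 149 CPM (SD, n = 9), and the log2 difference was -0.39 ± 0.17 (SE; edgeR adjusted p = 0.0487). None of the 30 Gpx4 UMIs of that library lay in its haemoglobin-dominated barcodes. The call was lost in 9 of the 19 fits that left out 1 library (ntCZC wt 1, het 3, het 4, null 2, null 3 or null 4, or tissue wt 1, wt 2 or null 3), in which the adjusted p rose to at most 0.110. It was also lost with ntCZC wt 3 and tissue null 3 both left out (edgeR adjusted p = 0.0656) and with sums over only those barcodes that had 200 genes or more and no more than 20% of UMIs from mitochondrial genes (edgeR adjusted p = 0.141). The block of the same 4 ntCZC and tissue pairs lost the Gpx4 call as well.

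Gpx3, the plasma form, was abundant in every tissue library and next to absent from blood. ntCZC libraries held 45 Gpx3 UMIs in all, from 0 in het 4, null 3 and wt 3 to 10.3 CPM in het 3, with a mean of 3.53 ± 3.77 CPM (SD, n = 10). Tissue libraries held 2074 CPM (wt 4) to 14237 CPM (wt 1), with a median of 3138 CPM, so that the lowest tissue library lay far above the highest ntCZC library. A stricter set held barcodes with 200 genes or more and no more than 20% of UMIs from mitochondrial genes. Over these barcodes, tissue libraries held 718 CPM (wt 5) to 1838 CPM (wt 1). The level of wt 1 in particular thus came mostly from barcodes outside this set. Gpx3 passed the low-count filter through its tissue libraries, so its call was set by the filter in part, and no fitted difference is given. With all barcodes summed, the tissue mean was 1374 times the pooled ntCZC value (interval 1027 to 1884, counting error only). The PBMC library held no Gpx3 UMI among 1422144.

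Gpx5, the epididymal form, was absent from every blood library. None of the 13389093 ntCZC UMIs was Gpx5, a count whose upper limit of 3 UMIs over the group is 0.224 CPM, and the tissue mean of 1910 ± 2338 CPM (SD, n = 9) was at least 8525-fold higher than this limit. Tissue libraries ranged from 0 in the female libraries wt 4 and wt 5 to 22.6 CPM (wt 3), 118 CPM (wt 2), 692 CPM (wt 1), 1936 CPM (het 1), 3833 CPM (het 2), 4406 CPM (null 3) and 6183 CPM (null 2). The levels were higher over the stricter set of barcodes alone, with no more than 20% of UMIs from mitochondrial genes. There they were 40.6 CPM in wt 3, 153 CPM in wt 2, 1515 CPM in wt 1 and 3267 CPM in het 1. Het 2 held 9006 CPM, null 3 8864 CPM and null 2 11479 CPM. Gpx5 did not pass the low-count filter of this comparison.

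The gastrointestinal Gpx2 was found once in ntCZC, as 1 UMI in het 4, whereas tissue libraries held 3.78 CPM (wt 1) to 13.3 CPM (null 2) and a mean of 7.39 ± 2.94 CPM (SD, n = 9). The tissue mean was 98.9 times the pooled ntCZC value (95% exact Poisson interval 17.8 to 3908, counting error only). Gpx8, an endoplasmic reticulum member, had 2 UMIs in ntCZC, both in null 1, and 5.13 CPM (wt 4) to 17.6 CPM (het 1) in tissue, a ratio of 64.7 (interval 17.9 to 534). No fitted difference of Gpx8 is given, since it would rest on those 2 UMIs of 1 library. Gpx7, the other reticulum member, had 21 UMIs in ntCZC and ran from 0 (wt 1, wt 3 and null 2) to 4.20 CPM in ntCZC against 1.28 to 3.88 CPM in tissue, groups that overlapped. Gpx2 and Gpx7 did not pass the low-count filter. Without that filter, the edgeR fit did not call Gpx7 (log2 difference -0.93 ± 0.49 SE, adjusted p = 0.147). No fitted difference of Gpx2 is given, since it would rest on 1 UMI of 1 library.

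Shares of barcodes with at least 1 UMI gave the same directions once every passing barcode was thinned to 1000 UMIs, which left out 7.02% of passing ntCZC and 20.9% of passing tissue barcodes (libraries without a group included). Gpx1 was found in 64.7 ± 8.86% (SD, n = 9 libraries) of ntCZC barcodes and 45.5 ± 9.83% (n = 9) of tissue barcodes, and the exact permutation test over libraries gave an adjusted p of 0.00484 over 42 gene-by-class comparisons. Gpx3 was found in 0.467% and 59.1%, Gpx8 in 0.0412% and 1.26%, and Gpx2 in 0.00264% and 0.551% of barcodes, each with an adjusted p of 0.000576 in the exact permutation test. Gpx5 was found in 0% and 9.45 ± 12.1% (exact permutation test, adjusted p = 0.0136). Gpx4 was found in 28.1 ± 3.69% and 34.0 ± 6.15% (exact permutation test, adjusted p = 0.0678), and at the depth as deposited the order was the other way round, 67.8% in ntCZC and 56.8% in tissue. Gpx7 moved likewise, from 0.195% against 0.441% thinned (exact permutation test, adjusted p = 0.0424) to 1.55% against 1.39% unthinned. The thinned Gpx2, Gpx7 and Gpx8 shares are near those of single UMIs. Library ntCZC wt 3 had too few barcodes to enter these shares.

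Barcodes were then assigned to marker-gated classes by genes that included no Gpx gene. In tissue, 48.6% of passing barcodes fell in 1 class, 6.02% held markers of several classes and were set aside, and 45.4% had too few markers. Of the classes with at least 20 barcodes in at least 2 libraries, 23 were compared. They are named by their markers with the suffix "-like", except the class gated with mesothelial markers, whose leading genes were the urothelial Upk3a and Psca, and which is called by those genes. The smooth muscle-like class had Ren1, the renin gene of juxtaglomerular cells, among its leading genes.

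**Figure D2:**
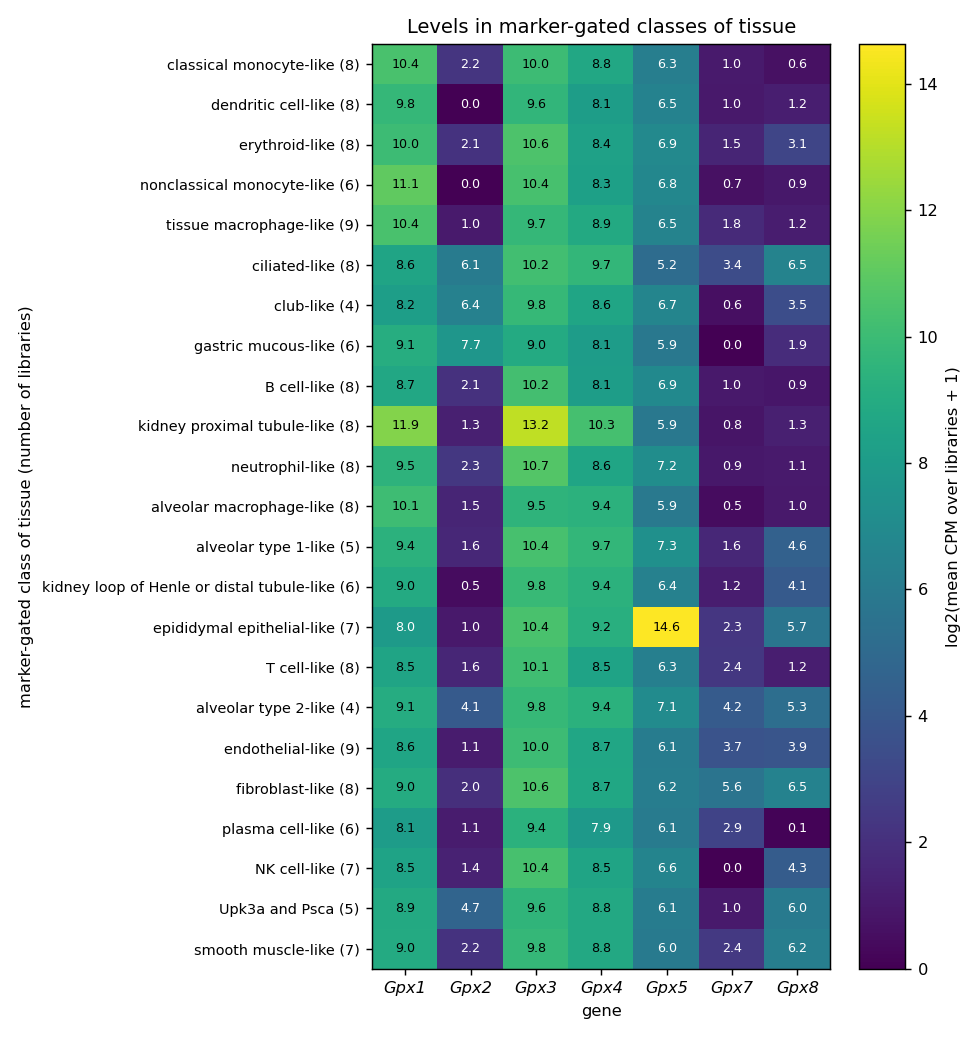
Level of each member as log2 of the mean CPM over libraries plus 1, in the 23 marker-gated classes of tissue, with the number of libraries of each class in parentheses. Gpx1, Gpx3 and Gpx4 are highest in kidney proximal tubule-like barcodes, Gpx5 in epididymal epithelial-like, Gpx2 in gastric mucous-like, Gpx7 in fibroblast-like and Gpx8 in ciliated-like barcodes.

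Kidney proximal tubule-like barcodes, the cells that reabsorb the glomerular filtrate, held the highest levels of 3 members. Gpx1 was at 3926 ± 752 CPM (SD, n = 8 libraries, 2767 to 4762 CPM) and did not overlap any of the other 22 classes. Nonclassical monocyte-like barcodes came next at 2142 ± 330 CPM (n = 6), then classical monocyte-like (1394 ± 236 CPM, n = 8), tissue macrophage-like (1379 ± 379 CPM, n = 9) and alveolar macrophage-like barcodes (1105 ± 160 CPM, n = 8), and epididymal epithelial-like barcodes were lowest (248 CPM). The classes next to the tubule in mean Gpx1 were thus these 4 of monocytes and macrophages, and neighbours among them overlapped. Hepatocyte-like barcodes, measured in 1 library and so not among these classes, held 3974 CPM, above the tubule mean. Pooled over libraries, hepatocyte-like barcodes also held 3153 CPM of Kap, a proximal tubule gene.

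Gpx3 was at 9413 ± 1830 CPM (SD, n = 8) in kidney proximal tubule-like barcodes, again with no overlap with any of 22 classes. The next classes were neutrophil-like (1693 ± 777 CPM, n = 8), erythroid-like (1515 ± 569 CPM, n = 8) and fibroblast-like (1499 ± 621 CPM, n = 8) barcodes, whose ranges overlapped. Gpx4 was at 1293 ± 210 CPM (SD, n = 8) in the tubule class, without overlap with 19 of 22 classes, followed by ciliated-like (810 ± 149 CPM, n = 8) and alveolar type 1-like barcodes (807 ± 192 CPM, n = 5).

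Gpx5 was at 25337 ± 18504 CPM (SD, n = 7) in epididymal epithelial-like barcodes, and the second class, alveolar type 1-like, was at 162 ± 182 CPM (n = 5). Gpx2 was led by gastric mucous-like barcodes (205 ± 88.2 CPM, SD, n = 6), without overlap with 20 of 22 classes. Too few gastric mucous-like barcodes remained for a level when at most 10% mitochondrial UMIs were allowed. The airway classes came next in Gpx2, club-like at 85.3 ± 35.4 CPM (n = 4) and ciliated-like at 65.9 ± 28.4 CPM (n = 8). Gpx7 was led by fibroblast-like barcodes, the main makers of collagen, at 49.2 ± 25.9 CPM (SD, n = 8), without overlap with 20 of 22 classes, and endothelial-like barcodes held 12.2 ± 3.15 CPM (n = 9). Gpx8 had no single leading class. Ciliated-like (91.2 ± 40.0 CPM, n = 8), fibroblast-like (87.8 ± 22.1 CPM, n = 8), smooth muscle-like (74.2 ± 49.7 CPM, n = 7) and Upk3a and Psca barcodes (63.1 ± 14.2 CPM, n = 5) overlapped, and ciliated-like barcodes no longer led when 1 more marker was required or at most 10% mitochondrial UMIs were allowed.

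Classes next to each other in mean level were compared within libraries. In exact sign-flip permutation tests of log2(CPM + 1), 0 of 154 neighbouring pairs passed an adjusted p of 0.05 (lowest 0.602), and 6 had an unadjusted p under 0.05. With at most 9 libraries a pair and 154 pairs, these tests separated no neighbours, the leading class of each gene and the second included, and the whole order, the lead included, is a description.

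Most classes of tissue held Gpx3 and Gpx5 UMIs, blood cell classes included. Thinned to 1000 UMIs, 61.7 ± 19.0% (SD, n = 8 libraries) of tissue B cell-like barcodes held a Gpx3 UMI, against 0% of ntCZC B cell-like barcodes, which lacked the gene in all 6 libraries. The part of free RNA in the tissue share was not tested. As a description, Gpx3 UMIs were set against UMIs of Kap, Slc34a1 and Miox, genes of the proximal tubule. Per 100 such UMIs, pooled over libraries, the ratio was 169 to 331, with a median of 267, in 19 of the classes. It was 57.8 in the tubule class itself, where Slc34a1 was also a gating marker. Kap, which gated no class, stood there at 10027 CPM, beside 179 CPM in B cell-like barcodes. The part of the gate in the ratio was not tested. Higher ratios were measured in ciliated-like (614), epididymal epithelial-like (600) and fibroblast-like (434) barcodes.

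Compared with B cell-like barcodes of the same library, the log2 ratio was higher by 0.93 ± 0.66 (SD) in fibroblast-like barcodes (8 of 8 libraries, exact sign-flip permutation p = 0.00781, adjusted p = 0.0573 over 22 classes), by 1.24 ± 0.67 in epididymal epithelial-like barcodes (7 of 7 libraries) and by 1.18 ± 1.03 in ciliated-like barcodes (7 of 8 libraries, both exact permutation adjusted p = 0.0688). The log2 ratio was lower in 8 of 8 libraries in erythroid-like barcodes (-0.57 ± 0.52, exact permutation adjusted p = 0.0573). In kidney proximal tubule-like barcodes, gated in part by Slc34a1, it was -1.92 ± 0.68. No test of this value is given, though its p entered the adjustment over 22 classes. None passed an adjusted p of 0.05, and 0.0573 was the lowest of the 22. With 8 libraries the smallest p of the sign-flip test is 0.00781, so passing over 22 classes needed several classes at that value. No conclusion is drawn from these tests. Gpx5 UMIs per 100 UMIs of the epididymal markers varied between libraries. In the epididymal epithelial-like class, which these markers gated, they were 1.03 in wt 3, 17.7 in wt 1, 19.3 in wt 2, 28.2 in null 3, 30.7 in het 1, 50.6 in null 2 and 50.8 in het 2. In the other classes of the same libraries, summed, they were 1.27 in wt 3, 20.8 in wt 1, 23.1 in wt 2, 26.6 in null 3, 22.6 in het 1, 36.8 in null 2 and 33.9 in het 2, so that wt 3 was lowest and null 2 and het 2 were the top libraries on both.

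**Figure D3:**
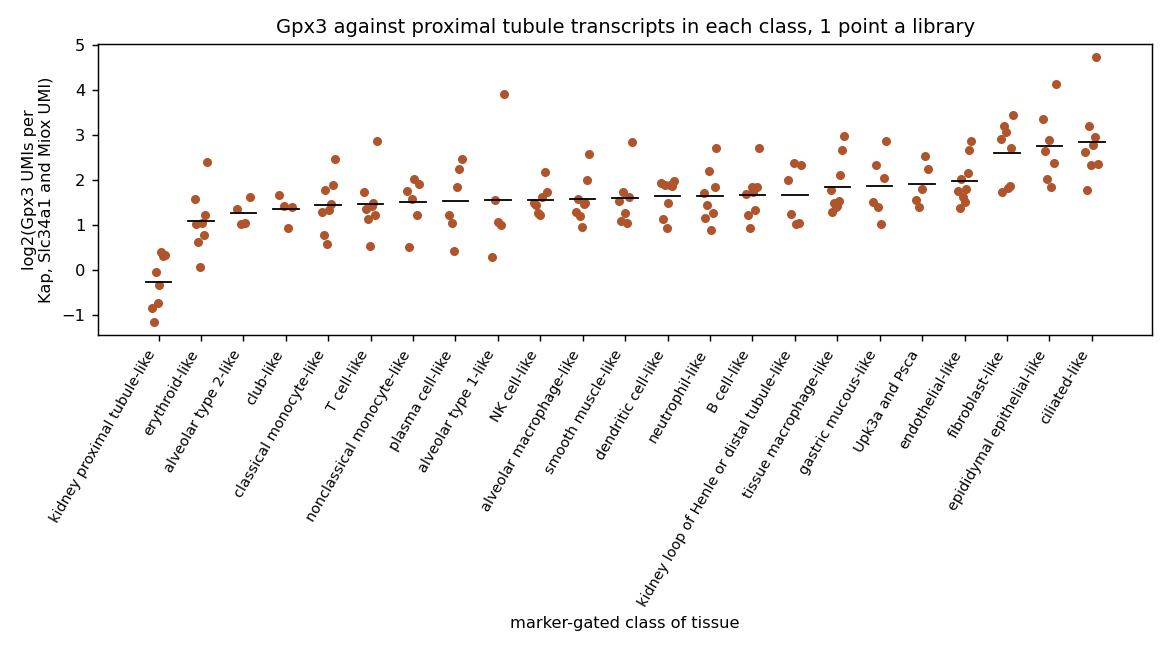
Gpx3 UMIs per UMI of the tubule genes Kap, Slc34a1 and Miox (log2) in each marker-gated class of tissue. Points are libraries and lines are means of the plotted values. Most classes lie together, the kidney proximal tubule-like class, gated in part by Slc34a1, lies lowest, and fibroblast-like, epididymal epithelial-like and ciliated-like barcodes lie highest.

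Gpx5 varied between libraries within the epididymal epithelial-like class too. Het 2 (48013 CPM), null 2 (44813 CPM) and null 3 (38617 CPM) were highest, het 1 held 21151 CPM, wt 1 13164 CPM and wt 2 11069 CPM, and wt 3 held 533 CPM. In wt 3, 9.30% of 129 epididymal epithelial-like barcodes held a Gpx5 UMI, against 54.3% to 89.2% in the other 6 libraries, although its barcodes had a median of 4743 UMIs, which lay within the range of those libraries. Other transcripts of the class were also low in wt 3. The defensin-related Spag11b was at 1366 CPM and Defb20 at 1150 CPM, against medians of 21109 and 16903 CPM over the 7 libraries, whereas Spink8, a protease inhibitor gene, was at 40234 CPM, the highest of the 7 libraries. The epididymal epithelial-like class in wt 3 therefore differed from the other libraries in several transcripts and not in Gpx5 alone, and which segment of the epididymis each library held was not given in the sources used here.

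**Figure D4:**
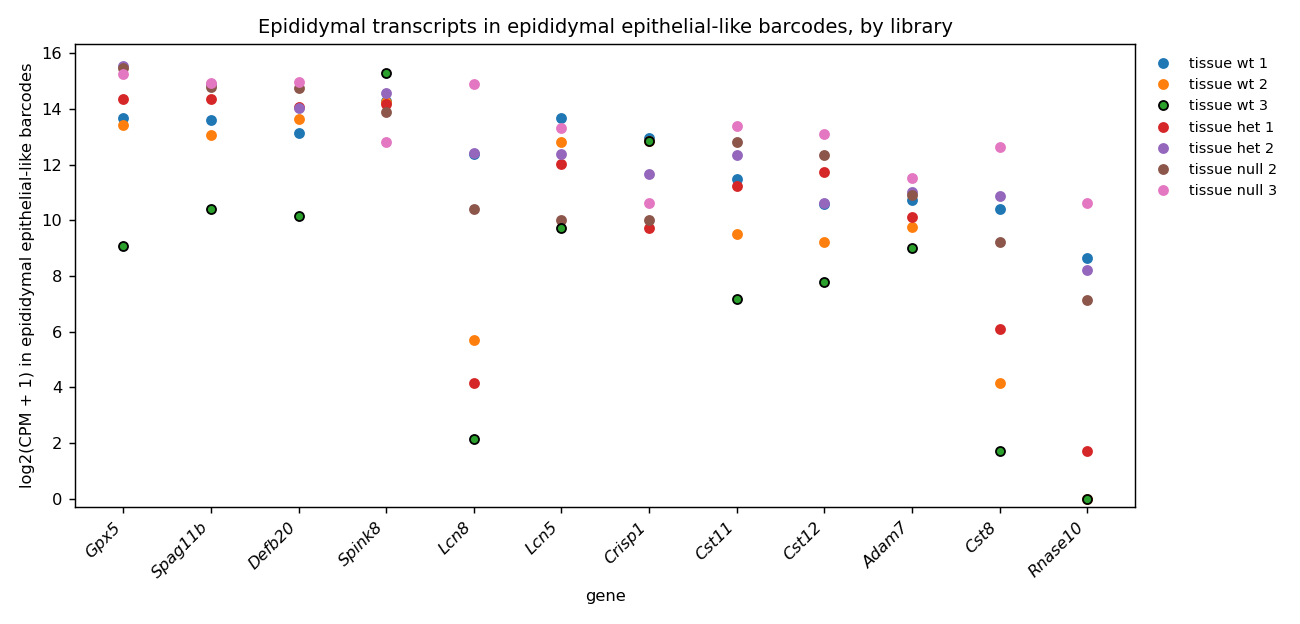
Levels, as log2(CPM + 1), of Gpx5 and the 11 listed epididymal genes in the epididymal epithelial-like barcodes of 7 tissue libraries, 1 point a library. The library wt 3, outlined in black, is lowest for Gpx5 (533 CPM), Spag11b and Defb20 and highest for Spink8 (40234 CPM).

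The genes whose level over the 23 classes followed each member most closely are given as a description (Pearson r of log2 mean CPM plus 1, over classes that share libraries, among 9489 genes with a mean of at least 10 CPM). Gpx3 followed Slc34a1 (r = 0.92), the sodium phosphate transporter of the proximal tubule, then Dnase1 and Slc27a2. Gpx5 followed Defb20 (0.99), Spag11b and Lcn5, Gpx2 followed Cxcl17 (0.90), a mucosal chemokine gene, then Adh7 and Tst, and Gpx8 followed Rasl11a (0.90), Sox4 and Ltbp3. Gpx4 followed Pex11a (0.86), a peroxisome gene, then Oplah and Bnip3, and Gpx1 followed Nuak2 (0.85), Sap30 and Lipa. Gpx7 had the weakest likeness, with Glt8d1 (0.73), Efemp2 and Pkd1 (9490 genes compared). Slc34a1, Defb20, Spag11b and Lcn5 were among the genes that gated the leading class.

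Classes found both in blood and in tissue allowed the library kinds to be compared within a class. In these 5 classes, 7 of 18 member tests were called, all lower in ntCZC, where 20.6% of 24911 gene-by-class tests were called. Gpx1 made up 2 of the 7. The other 5 were Gpx3, which passed the filter in each class through its tissue libraries, so that its calls were set by the filter in part and its levels are given instead. B cell-like and T cell-like barcodes of ntCZC held no Gpx3 UMI, and the tissue means of 1203 ± 642 CPM and 1135 ± 708 CPM (SD, n = 8 each) were at least 593-fold and at least 139-fold higher than the limit of 3 UMIs over the group. Nonclassical monocyte-like barcodes held 3 UMIs in ntCZC, so that the tissue mean was 1575 times higher with a counting interval of 539 to 7638. Classical monocyte-like barcodes held 7 UMIs in ntCZC. Tissue macrophage-like barcodes held most, 16 UMIs in 2 libraries (4.32 and 29.4 CPM). Gpx5 had no UMI in any of the 5 ntCZC classes, and its tissue means were at least 9.48-fold (T cell-like) to at least 129-fold (nonclassical monocyte-like) higher than the limit of 3 UMIs over the group. It passed the filter in 3 of these classes through tissue alone, and no test of it is given.

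Gpx1 was lower in ntCZC than in tissue in both lymphoid classes as measured. The tissue values include any free RNA in the droplets, whose part in Gpx1 was not tested. The same tissue classes also held Gpx3 UMIs, and among the classes compared mean Gpx1 was highest in the tubule class. B cell-like barcodes held 98.3 to 292 CPM in 6 ntCZC libraries and 236 to 713 CPM in 8 tissue libraries, and the log2 difference was -0.80 ± 0.28 (SE; edgeR adjusted p = 0.0302). T cell-like barcodes held 108 and 145 CPM in 2 ntCZC libraries and 204 to 783 CPM in 8 tissue libraries, without overlap, with a log2 difference of -1.87 ± 0.49 (SE; edgeR adjusted p = 0.0231). The thinned share of B cell-like barcodes with a Gpx1 UMI was 19.97 ± 5.07% in ntCZC and 30.9 ± 10.3% in tissue at 1000 UMIs (exact permutation adjusted p = 0.0892), and 10.3% and 17.8% at 500 UMIs (exact permutation adjusted p = 0.0839). At the depth as deposited the order was the other way round, 48.1% and 46.3% (exact permutation adjusted p = 0.884). In T cell-like barcodes the share at 1000 UMIs was 10.7% and 28.7% (exact permutation adjusted p = 0.187). Both edgeR calls were fragile. In B cell-like barcodes the call was lost without ntCZC het 4, null 2 or null 4, without tissue null 3, and with at least 50 cells a library (edgeR adjusted p = 0.360), and in T cell-like barcodes without either ntCZC library (wt 1 or het 4), which leaves 1 such library, and with 1 more marker required (edgeR adjusted p = 0.0887).

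Gpx1 was not called by edgeR in the myeloid classes with all libraries. Nonclassical monocyte-like barcodes held 2693 ± 232 CPM (SD, n = 7) in ntCZC and 2142 ± 330 CPM (n = 6) in tissue, a log2 difference of 0.14 ± 0.12 after TMM scaling (SE; edgeR adjusted p = 0.385). The share of these barcodes with a Gpx1 UMI was higher in ntCZC at 500 UMIs (70.8% against 61.3%) and at the depth as deposited (98.8% against 90.4%), both with an exact permutation adjusted p of 0.0318, and at 1000 UMIs it was 90.1% against 84.0% (exact permutation adjusted p = 0.0587). Classical monocyte-like barcodes held 1593 ± 287 CPM (SD, n = 3) and 1394 ± 236 CPM (n = 8; log2 difference 0.02 ± 0.20 SE, edgeR adjusted p = 0.960). Tissue macrophage-like barcodes held 2094 and 3069 CPM in 2 ntCZC libraries and 1379 ± 379 CPM (SD, n = 9) in tissue (log2 difference 1.18 ± 0.39 SE, edgeR adjusted p = 0.0571), a difference that was called by DESeq2 (adjusted p = 0.0256) and by edgeR without tissue wt 2, het 1 or wt 5 (adjusted p from 0.0146 to 0.0496). Gpx4 was called by edgeR with all libraries in none of the 5 classes. Its log2 differences ran from -0.40 to 1.13, with a lowest edgeR adjusted p of 0.0671, and 2 of the 5 had an unadjusted p under 0.05. DESeq2 called the tissue macrophage-like difference (1.14, adjusted p = 0.0406), as did edgeR without tissue wt 3 (1.13, adjusted p = 0.0495), and edgeR without ntCZC het 1, tissue wt 1 or tissue het 2 called the nonclassical monocyte-like difference (-0.51 to -0.48, adjusted p from 0.0373 to 0.049999).

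**Figure D5:**
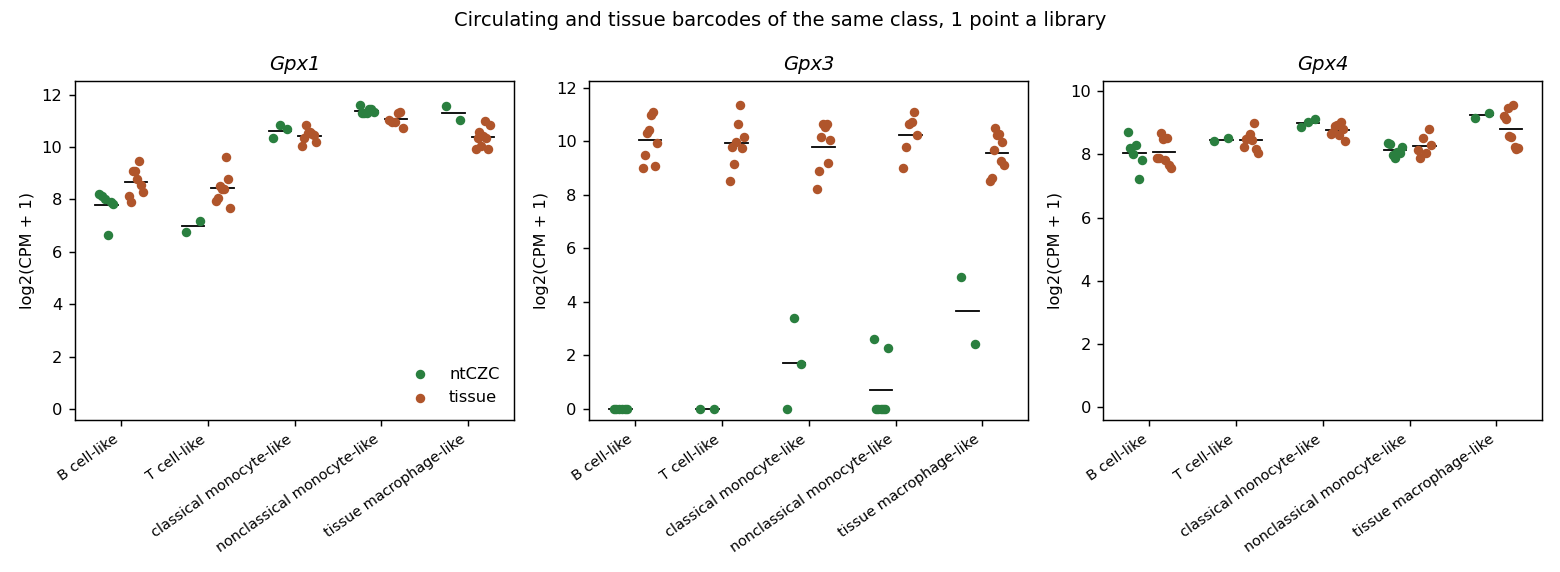
Gpx1, Gpx3 and Gpx4, as log2(CPM + 1), in 5 classes found in both ntCZC and tissue libraries. Points are libraries with at least 20 barcodes of the class and lines are means of the plotted values. Gpx3 is separated in every class, Gpx1 is lower in ntCZC in B cell-like and T cell-like barcodes, and Gpx4 overlaps in most classes.

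Nalcn genotype labels gave no edgeR call for any member at the level of libraries. In ntCZC, null against wt called 0.0% of 9379 genes (360 at an unadjusted p under 0.05), het against wt called 0.107% and null against het called 0.0% (686 at an unadjusted p under 0.05), and 3 members (Gpx1, Gpx3 and Gpx4) passed the filter. Gpx1 alone had an unadjusted p under 0.05, in null against wt. Wt libraries held 248 and 1756 CPM, het libraries 1202, 1712, 1865 and 2084 CPM, and null libraries 1311, 1321, 1580 and 2054 CPM, so that the groups overlapped and the low wt value was that of the haemoglobin-rich wt 3. The null against wt log2 difference was 0.95 ± 0.36 (SE; edgeR adjusted p = 0.983), and 0.57 ± 0.28 without wt 3, a fit in which the lone wt library was assumed to vary like the other groups.

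In tissue, null against wt called 0.0112% and het against wt 0.0% of 17863 genes (1367 at an unadjusted p under 0.05), and no member was among those called. Gpx5 was at 6183 and 4406 CPM in the null libraries, 1936 and 3833 CPM in the het libraries and 0, 0, 22.6, 118 and 692 CPM in the wt libraries. The wt libraries at 0 were wt 4 and wt 5, female by label, whose pools held uterus in place of epididymis. They had 0 epididymal epithelial-like barcodes. The null and wt groups did not overlap, but this compares pools of different organs in part. With sex as a covariate, null 3, female by label, was set beside wt 4 and wt 5. In that fit the log2 difference was 12.40 ± 3.45 (SE; edgeR adjusted p = 0.434). Without null 3 it was 4.29 ± 1.46 (SE; edgeR adjusted p = 0.879), where null 2, the lone null library, was assumed to vary like the other groups. The epididymal markers moved with it, at 12646 and 15728 CPM in null, 5993 and 7768 CPM in het and 5.03 to 2494 CPM in wt libraries, as did the epididymal epithelial-like barcodes, which were 9.04% and 7.71% of passing barcodes in null, 2.15% and 3.68% in het and 0% to 2.30% in wt libraries. All 11 listed epididymal genes other than Gpx5 were tested, 7 had an unadjusted p under 0.05 (9.07% of all genes did) and 0 were called by edgeR, and their part in the Gpx5 result was not tested. Gpx8 was higher in the het libraries (12.96 and 17.6 CPM) than in every wt library (5.13 to 8.31 CPM), with a log2 difference of 0.90 ± 0.19 (SE; edgeR adjusted p = 0.644). DESeq2 called the Gpx8 difference (adjusted p = 0.0206). The share of all genes that DESeq2 called in this contrast is not given, so that call was not weighed. The null against wt difference of Gpx8 was 0.49 ± 0.19 (SE; edgeR adjusted p = 0.515), and Gpx1, Gpx2, Gpx3, Gpx4 and Gpx7 had edgeR adjusted p values of 0.752 or more in both contrasts.

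Within 14 tissue classes, null against wt called 0 of 65 member tests and het against wt called 0 of 65, where 0.00317% and 0.00423% of 94637 gene-by-class tests were called. At an unadjusted p under 0.05 there were 17 and 19 member tests, beside 5.18% and 6.24% of all gene-by-class tests. Of the first, 12 were Gpx5, which was higher in null libraries in all 13 classes tested (log2 differences 2.35 to 5.00, lowest edgeR adjusted p = 0.0648 in dendritic cell-like barcodes), the blood cell classes included. The 10 epididymal markers, summed, also had a higher mean in null than in wt libraries in 13 of these 13 classes (log2 ratios of means 0.88 to 3.64, median 3.00, beside a median of 4.43 for Gpx5). In B cell-like barcodes they stood at 752 and 1452 CPM in the null and at 1.96 to 285 CPM in 4 wt libraries. Their part in the Gpx5 difference within classes was not tested. Of the second, 12 were Gpx3, which was lower in het libraries in 14 of 14 classes (log2 differences -1.97 to -0.14, lowest edgeR adjusted p = 0.478). The tubule genes Kap, Slc34a1 and Miox, summed, had a lower mean in het than in wt libraries in 13 of these 14 classes (log2 ratios of means -1.77 to 0.18, median -1.02, beside a median of -1.20 for Gpx3). In B cell-like barcodes, for instance, they stood at 200 to 269 CPM in 2 het and 151 to 939 CPM in 4 wt libraries. Their part in the Gpx3 difference was not tested. These classes share their libraries and are not independent of each other. In the epididymal epithelial-like class itself, Gpx5 differed by 2.35 ± 1.27 (SE; edgeR adjusted p = 0.762). DESeq2 called 5 of the 65 null against wt tests, and 0.119% of all gene-by-class tests. edgeR without tissue wt 1, wt 2, wt 3 or null 2 called 6, 3, 2 and 1 null against wt member tests, beside 0.0499%, 0.0266%, 0.0242% and 0.007% of all tests. Without wt 1 or wt 3 it called 2 and 1 het against wt member tests, beside 0.341% and 0.147% of all tests.

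In the edgeR test of whether the genotype effect differed between ntCZC and tissue, 0 of 12954 genes and 0 of 7 members were called in either contrast, with 773 (null) and 967 (het) genes at an unadjusted p under 0.05. Gpx2, Gpx5 and Gpx8 had too few ntCZC UMIs for this test to say anything of them. For Gpx1 the null effect in ntCZC minus that in tissue was 1.18 ± 0.55 (SE; edgeR adjusted p = 0.833). Male and female tissue libraries, which hold different reproductive organs, differed in 0.0115% of 17398 genes and in no member. Gpx5 had a log2 difference of 9.15 ± 3.93 (SE; edgeR adjusted p = 0.637) in a comparison in which tissue null 3, female by label, held 4406 CPM and the other female libraries 0. Without null 3 both female libraries are at 0, and no fitted difference is given.

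The other genes of peroxide and glutathione metabolism gave a context for the kinds, with a background of 28.5% of genes higher and 36.0% lower in ntCZC. Ggt1, Sod3 and Nqo1, with 0, 1 and 4 UMIs in ntCZC, passed the low-count filter through their tissue libraries. Their calls were set by the filter in part, so the counts that include them were not weighed against this background. Of 9 tested genes of glutathione synthesis and recycling, 1 rose and 4 fell in ntCZC, the 4 being Ggt1, which cleaves extracellular glutathione and was at 0 in all 10 ntCZC libraries (the tissue mean was at least 288-fold higher than 3 UMIs over the group), Gclc (log2 difference -2.26) and Gclm (-1.43), the subunits of the rate-limiting synthesis enzyme, and the cystine transporter Slc7a11 (-1.87). Of 14 other peroxide and superoxide enzymes, 3 rose and 5 fell, with the largest changes in extracellular superoxide dismutase Sod3 (1 UMI in ntCZC, the tissue mean 293 times the pooled ntCZC value with a counting interval of 52.6 to 11574), catalase Cat (log2 difference -1.98), Sod1 (-1.93) and thioredoxin reductase Txnrd1 (-1.25).

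Of 16 genes of selenoprotein synthesis and other selenoproteins, 6 rose and 5 fell. The largest changes were those of Selenot (-1.24), Selenom (-1.23) and Selenon (-1.13), and of the methionine sulfoxide reductase Msrb1 (1.22). Of 11 genes of lipid peroxidation and ferroptosis, 2 rose, the lipoxygenases Alox15 (7.20) and Alox5 (1.20), and 6 fell. Among the 6 were the antioxidant response genes Srxn1 (-3.21) and Nqo1. Nqo1 had 4 UMIs in ntCZC, and its tissue mean was 48.6 times the pooled ntCZC value with a counting interval of 19.0 to 178. Median log2 differences were -0.41, -0.13, 0.22 and -0.54 for these 4 lists in the order given, beside -0.08 over all genes tested, and the first was the same with Ggt1 at its bound. None of the 11 epididymal genes passed the filter of this comparison. No gene of any list was called between genotypes or sexes.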

How the data were processed

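Cell Ranger made the matrices on mouse build mm10 (version 3.0.2 in their headers, 2.1.1 in the submitters' processing notes, which also name Seurat). The authors deposited raw UMI counts of each gene in each called barcode, without normalization. Hashtag counts that mark organs were not used here. The members and gene lists were chosen with earlier results of these data known. Groups came from the labels.

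UMI counts were summed per library and tested in R 4.3.3 with edgeR 4.0.16 (quasi-likelihood test, TMM, filterByExpr, sex as covariate, Benjamini-Hochberg over all genes tested). DESeq2 1.42.0 was an alternative. A call is an adjusted p under 0.05. Fits were tested on simulated counts.

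For classes, barcodes had 200 genes or more and no more than 25% of UMIs from mitochondrial genes. A marker counted as present when its UMIs exceeded the rate of the library (Poisson tail p under 0.01; the pooled rate of tissue for blood libraries), and a class needed at least 2 of its markers and no other class with 2. This rule, but not the markers, was set after the data were seen. No doublet caller was run, and barcodes with markers of several classes were set aside. A class entered with at least 20 barcodes in a library. Exact permutation tests (scipy 1.17.1) used libraries as units. Counts of replicate pairs differed by more than sampling noise (chi-square per degree of freedom at least 4.75 in 25 pairs), so no pair was taken for 1 library deposited 2 times, which does not show that libraries came from separate mice. Intervals and limits cover counting error only. The precision follows the depth, from 161541 UMIs in the smallest library.

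Named genes were every listed Gpx gene, up to 4 called genes with the largest change per list and, per Gpx gene, the 3 genes most like it over classes. Promoters came from RefSeq and coordinates from GENCODE vM21.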

Additional observations from a re-analysis of the deposited data

Results flagged for a closer look

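Gpx5 in tissue wt 1 lay far from the other 4 wt libraries, at 692 CPM beside 118 CPM in the nearest. Gpx2 in ntCZC het 4 (0.385 CPM, 1 UMI) and Gpx8 in ntCZC null 1 (1.43 CPM, 2 UMIs) were the only values above 0 in their groups of 4. These 3 came from 28 groups tested for a far value, of which chance marks about 1 in 20. That rate does not hold where all other values are 0, as in the Gpx2 and Gpx8 groups, since any lone UMI is then marked. The Gpx5 group holds the female libraries wt 4 and wt 5 at 0.

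The gap in Gpx1 between nonclassical monocyte-like and B cell-like barcodes was compared between the kinds after the class values were seen, and is a description. It was 3.69 ± 0.57 on the log2 scale (SD, n = 5 libraries, 3.18 to 4.66) in ntCZC and 2.45 ± 0.51 (SD, n = 6, 1.85 to 3.08) in tissue, a difference of 1.24. The tissue values include any free RNA in the droplets, whose part was not tested.

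Data outside the comparisons also held signal. The tissue library with the conflicting genotype label and replicate number 3 held 15144 Gpx5 UMIs (598 CPM), and that with replicate number 1, female by label, held 11 (0.312 CPM). Gpx6, a family gene that was not a listed member, had 25 to 1158 UMIs in tissue libraries (1.00 to 24.8 CPM) and 0 in ntCZC and PBMC libraries, with the highest count, 1158, in tissue null 3.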

How the results depend on the processing

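Of the counts and leading class levels, 83 stayed within 1.5 times or 1 SD of the reported value under the alternatives other than leaving out a library, and 11 moved. Members called between kinds within classes went from 7 of 18 to 11 with DESeq2 and to 4 of 11 with at least 50 cells. Over all gene-by-class tests, 19.7% were called with DESeq2 and 12.9% with at least 50 cells. The member counts include Gpx3 and Gpx5, which passed the filter through tissue. In tissue classes, null against wt went from 0 to 5 with DESeq2, 1 with 1 more marker and 2 with at least 50 cells. Beside these stood 0.119%, 0.0113% and 0.00909% of all gene-by-class tests. There, het against wt went from 0 to 1 with DESeq2 and 1 with 1 more marker, beside 0.118% and 0.0617% of all tests. Het against wt in whole tissue went from 0 to 1 with DESeq2 (Gpx8). The share of all genes called in that fit is not given, so this count was not weighed. Leaving out 1 library gave 0 to 6 calls (null) and 0 to 2 (het) in classes, beside at most 0.0499% and 0.341% of all tests.

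Deviations from the group means of libraries with the same replicate number correlated at -0.257 to 0.272 in ntCZC and -0.501 to 0.0281 in tissue. In a group of 2 libraries these deviations are mirror images. Tissue wt 1, for instance, correlated at -0.501 with het 1 and at 0.501 with het 2. Such values cannot decide whether the numbers pair the libraries. For the 4 pairs of ntCZC and tissue libraries that share genotype, number, age and sex, deviations from the group means correlated at 0.0161 to 0.142 (median 0.0671). Over the 86 other pairs they correlated at -0.215 to 0.274 (median 0.00348). Such correlations between blood and organs cannot show whether 2 libraries came from 1 mouse. The main tests did not pair them, and whether they are paired is open. With a replicate block of these 4 pairs, added after seeing the data, only they bear on the difference. In that fit Gpx1 (0.48 ± 0.39 SE, edgeR adjusted p = 0.367) and Gpx4 (-0.51 ± 0.37 SE, edgeR adjusted p = 0.298) were not called. Gpx3 and Gpx8 stayed called, but they passed the filter through tissue and their calls are not weighed. With the number as a replicate block, the members called between kinds stayed at 4. That count includes Gpx3 and Gpx8, which passed the filter through tissue. It was not weighed, since the share of all genes called in that fit is not given. Under this block, calls in tissue classes went to 6 (null) and 2 (het) beside 0.208% and 0.657% of all tests. The block lost the call of Gpx1 in T cell-like barcodes (-1.26, edgeR adjusted p = 0.226). Under this block these uncalled differences turned sign: male against female, Gpx1 -1.12, Gpx3 -3.17, Gpx4 -1.11, Gpx5 -3.20 and Gpx7 -1.11; tissue het against wt, Gpx2 0.58 and Gpx4 -0.32; tissue null against wt, Gpx4 -0.49 and Gpx7 -0.37; and Gpx4 in T cell-like barcodes, 0.18.

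Other sign changes were in tissue null against wt with filtered barcodes, Gpx3 0.32; in tissue het against wt, Gpx4 -0.0087 without the low-count filter and -0.033 with filtered barcodes; in ntCZC null against het without sex, Gpx4 0.019; and in B cell-like barcodes with at least 50 cells, Gpx4 -0.0093. Without thinning, shares differed by 11.0 percentage points for Gpx4 and 0.159 for Gpx7.

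Leaving out 1 library in turn, differences that changed sign ranged as follows. In tissue null against wt, Gpx1 ran from -0.41 to 0.20, Gpx2 from -0.49 to 0.85, Gpx3 from -1.95 to 0.26, Gpx4 from -0.17 to 0.93 and Gpx7 from -0.031 to 0.90. In tissue het against wt, Gpx2 ran from -0.45 to 0.22 and Gpx4 from -0.18 to 0.20. In male against female, Gpx2 ran from -0.22 to 0.42 and Gpx7 from -0.11 to 0.46. In ntCZC, Gpx3 null against wt ran from -0.59 to 4.34, Gpx4 het against wt from -0.70 to 0.019 and Gpx4 null against het from -0.17 to 0.011. Between kinds, Gpx1 in classical monocyte-like barcodes ran from -0.15 to 0.17, Gpx4 in B cell-like from -0.13 to 0.25 and Gpx5 in tissue macrophage-like from -11.75 to 0. The causes were not tested. The fits without both ntCZC wt 3 and tissue null 3, and the class levels and shares without tissue null 3, were chosen after seeing the data, as was leaving out haemoglobin-dominated barcodes, which lost the call of Gpx1 between kinds (0.64, edgeR adjusted p = 0.0589). Where a library left out was 1 of 2 in its group, the other was assumed to vary like the remaining groups. Kidney proximal tubule-like and gastric mucous-like barcodes gave no level at 10% mitochondrial UMIs. Depth limits Gpx2, Gpx7 and Gpx8, which had 1, 21 and 2 UMIs in ntCZC.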
